A study of Mus musculus with 20 samples.

Results

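Mouse embryo fibroblasts were used in which the gene of the RNA polymerase I factor UBF could be deleted or was intact. In them the Id genes and the inhibitory Smads were described. They are 6 genes (*Id1*, *Id2*, *Id3*, *Id4*, *Smad6* and *Smad7*) of 19938 with a probe set of their own on the array. They were selected on a measured value, the late rise of *Id1* in the immortalized *Ubf* fl/fl cells, and the question was whether the other BMP-responsive genes shared that rise. For each gene the probe set with 1 gene symbol and the highest mean over the 20 arrays was taken. All 6 passed the filter on low values, as did 15272 genes in all, and each was above that filter on all 20 arrays.

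Bone morphogenetic proteins (BMPs) are secreted ligands of the TGF-beta family. They bring together type I and type II receptor kinases, which phosphorylate SMAD1, SMAD5 and SMAD9; these join SMAD4, enter the nucleus and switch on target genes. The Id genes are among the most direct of these targets. Their products are helix-loop-helix proteins without a DNA-binding region, which hold E proteins such as TCF3 in inactive dimers and so restrain differentiation. *Smad6* and *Smad7* encode inhibitory SMADs that are induced by the same pathway and close a feedback loop, SMAD6 mainly on BMP signalling and SMAD7 on BMP and TGF-beta signalling. In fibroblasts *Id1* also responds to serum.

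The cells were primary fibroblasts (MEFs) from embryos at E14.5, and lines immortalized by transfection of a plasmid encoding the SV40 T and t antigens (iMEFs). Each came in 2 genotypes, *Ubf* fl/fl/Er-cre+/+ or, for the isogenic control, *Ubf* wt/wt/Er-cre+/+, so all lines carried the tamoxifen-activated recombinase. All 4 lines received 50 nM 4-hydroxytamoxifen (4-HT) for 4 h, after which the medium was replaced, and were harvested at 0, 24, 48, 72 and 96 h post 4-HT (pHT). There was 1 array for each line and time, and 1 line for each genotype and cell type. The 20 arrays therefore hold no replicates, and a lasting difference between lines cannot be told apart from genotype or immortalization.

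Levels are RMA values on the log2 scale, where a difference of 1 is a 2-fold change. The probe set of *Ubtf*, the gene for UBF, ran from 10.01 to 10.62 in fl/fl iMEFs and from 9.49 to 10.45 in wt/wt iMEFs. In MEFs its range was 10.53 to 10.65 in fl/fl and 10.22 to 10.75 in wt/wt cells. It thus did not separate the genotypes, and its position relative to the deleted exons is not given in the sources used here. Fibroblast markers lay at a mean log2 level of 11.84 to 12.14 on the MEF arrays and 9.59 to 10.40 on the iMEF arrays. In iMEFs the fibroblast proteoglycan genes *Dcn* and *Lum* had line means of at most 6.75 and 4.94, with *Lum* under the filter on every iMEF array, whereas *Col1a1*, *Vim* and *Fn1* lay at 12.39 or more.

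RefSeq promoter sequences (mouse build GRCm38.p6) are given for 4 of the 6 genes. They are shown as the regions next to the start sites, and they reach from 250 bases before to 50 bases after the annotated start. SMAD elements outside this window were not searched. *Id1* and *Smad7* are named only. Capitals mark matches, on either strand, to the SMAD palindrome GTCTAGAC, the GC-rich SMAD element GGCGCC or the SMAD box CAGAC.
Id2 (chr12:25096043-25096342, minus strand): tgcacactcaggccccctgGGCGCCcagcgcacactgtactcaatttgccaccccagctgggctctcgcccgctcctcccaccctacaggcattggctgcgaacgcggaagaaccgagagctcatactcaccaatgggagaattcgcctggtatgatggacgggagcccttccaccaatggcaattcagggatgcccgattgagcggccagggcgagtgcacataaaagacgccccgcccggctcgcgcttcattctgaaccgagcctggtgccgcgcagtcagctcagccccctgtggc
Id3 (chr4:136143572-136143871, plus strand): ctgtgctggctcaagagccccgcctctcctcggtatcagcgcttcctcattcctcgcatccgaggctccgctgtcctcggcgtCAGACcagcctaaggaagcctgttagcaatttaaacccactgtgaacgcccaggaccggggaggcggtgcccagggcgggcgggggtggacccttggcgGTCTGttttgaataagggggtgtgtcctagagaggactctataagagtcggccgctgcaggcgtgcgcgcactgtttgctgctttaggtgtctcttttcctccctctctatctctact
Id4 (chr13:48260866-48261165, plus strand): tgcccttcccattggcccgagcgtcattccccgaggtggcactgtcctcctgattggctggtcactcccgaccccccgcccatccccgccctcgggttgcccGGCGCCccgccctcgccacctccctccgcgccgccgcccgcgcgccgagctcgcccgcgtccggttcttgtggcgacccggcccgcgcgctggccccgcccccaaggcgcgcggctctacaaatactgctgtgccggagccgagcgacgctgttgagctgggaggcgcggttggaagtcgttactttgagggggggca
Smad6 (chr9:64022010-64022309, minus strand): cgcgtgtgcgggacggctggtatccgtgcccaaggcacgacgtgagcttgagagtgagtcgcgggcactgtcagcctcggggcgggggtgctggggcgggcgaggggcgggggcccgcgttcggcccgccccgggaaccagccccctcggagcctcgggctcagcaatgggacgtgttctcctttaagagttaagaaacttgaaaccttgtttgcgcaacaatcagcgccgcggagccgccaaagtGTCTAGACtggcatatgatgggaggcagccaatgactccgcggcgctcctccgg

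The palindrome GTCTAGAC stood in the *Smad6* promoter, beginning at position -4 counted from the start site, and in 0.213% of 32851 promoters of the same length. GGCGCC matched once each in *Id2* at -231 and *Id4* at -148, and in 11.9% of all promoters. *Id3* held CAGAC at -167 and -68, and 49.6% of all promoters held CAGAC anywhere in the window. None of these 3 motifs contains another of them in whole. A search for CCAAT, held by 37.4% of promoters, found 3 matches in *Id2*, 2 in *Id4*, 1 in *Smad6* and 0 in *Id3*. TATAAA was in 0 of the 4 windows and in 13.6% of all. A match describes the letters in the window, and nothing on SMAD binding was measured here.

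In iMEFs *Id1* moved in opposite directions in the 2 genotypes. In fl/fl iMEFs the *Id1* level (probe set 10477169) was 9.87 at 0 h, 9.69 at 24 h, 10.24 at 48 h, 10.50 at 72 h and 10.90 at 96 h. In wt/wt iMEFs it was 10.64, 10.52, 9.60, 9.86 and 9.99 at the same times. All late arrays (48 to 96 h) of the fl/fl line were thus above its early arrays (0 and 24 h), and all late arrays of the control were below its early ones. The fl/fl line began 0.77 below the control on the log2 scale, was 0.83 below it at 24 h, and was 0.64, 0.64 and 0.91 above it from 48 h on. Between the early and late means *Id1* increased 1.70-fold in fl/fl iMEFs and changed 0.589-fold in wt/wt iMEFs, that is by 0.77 and -0.76. The gain of *Id1* relative to the control was therefore made up in nearly equal parts of a higher level in fl/fl cells and a lower level in the control. In bulk samples such as these, fewer cells that express a gene and less of its RNA per cell cannot be told apart.

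In the means over early and late times, 4 other members had the same pair of directions in iMEFs, at smaller size. The late minus early difference in fl/fl and wt/wt iMEFs was 0.14 and -0.18 for *Id3*, 0.14 and -0.15 for *Id4*, 0.25 and -0.02 for *Smad6*, and 0.24 and -0.04 for *Smad7*. Such means, above 0 in fl/fl and below 0 in wt/wt iMEFs, were seen in 5 of the 6 members and in 23.9% of the genes kept. With every late array compared with every early one, the pattern was found in *Id1* alone among the members. Late arrays all above the early ones in fl/fl iMEFs were seen for *Id1* and *Smad7*, against 13.6% of the genes kept. Late arrays all below the early ones in wt/wt iMEFs were seen for *Id1*, against 13.1%, and both together for *Id1*, against 1.15% (175 genes). Since *Id1* was picked for its course in this contrast, these shares are a description and test nothing.

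In MEFs *Id1* ran in parallel in the 2 genotypes. Its levels were 9.59, 9.37, 9.29, 9.21 and 9.64 in fl/fl MEFs and 10.06, 9.82, 9.63, 9.58 and 10.03 in wt/wt MEFs, from 0 to 96 h. The fl/fl line was below the control at every time, by 0.33 to 0.47. Both lines dipped to their lowest value at 72 h and were back near the 0 h level at 96 h.

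**Figure D1:**
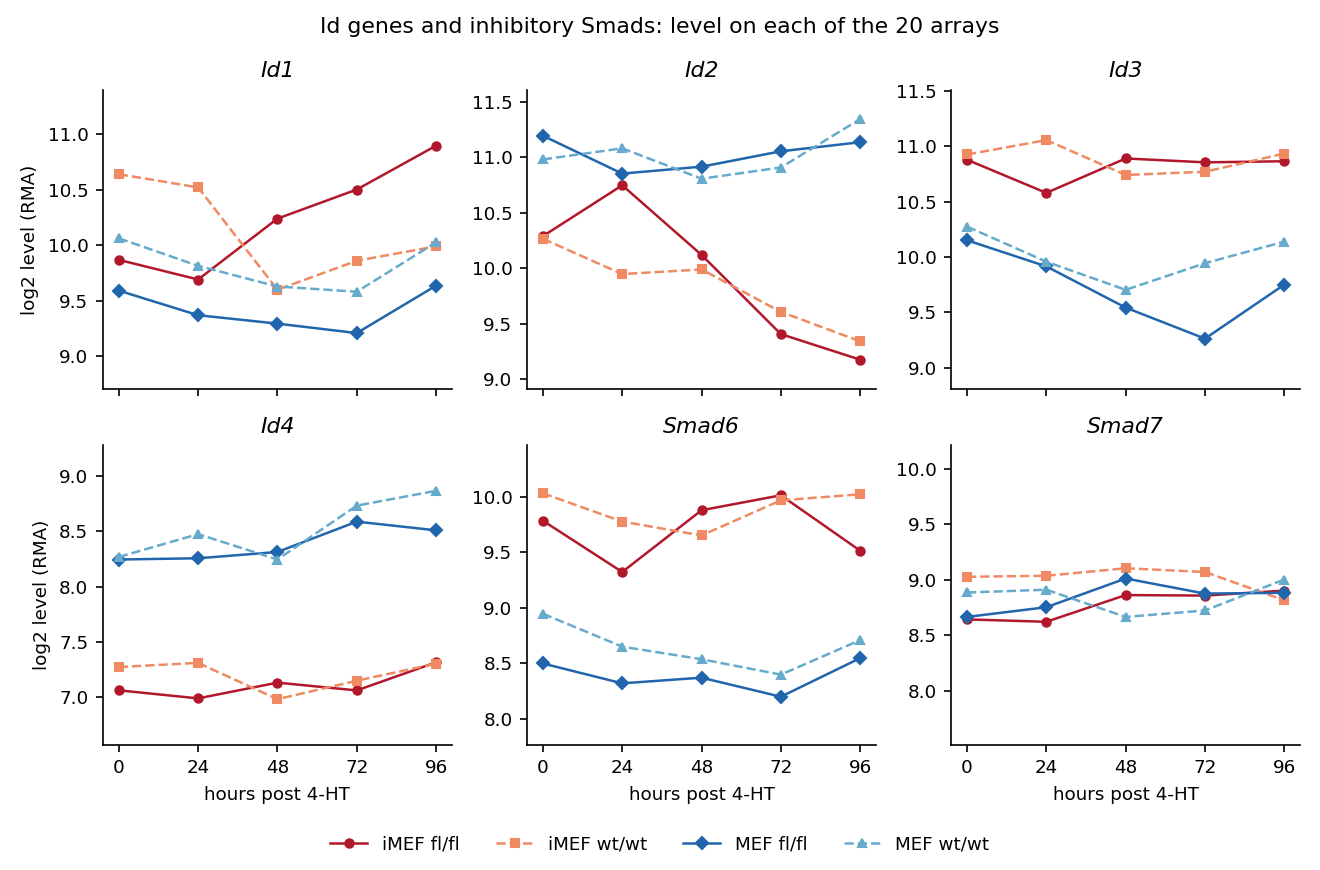
Log2 level (RMA) of each gene against hours post 4-HT, 1 point per array; solid lines are fl/fl and dashed lines wt/wt, and each panel spans the same number of log2 units. The *Id1* lines of the iMEFs cross between 24 and 48 h, whereas *Id2* falls in both iMEF lines to 9.18 and 9.34 at 96 h.

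*Id2*, which encodes the family member that also binds the RB protein, fell with time in both iMEF lines. Its levels (probe set 10399691) were 10.29, 10.75, 10.12, 9.41 and 9.18 in fl/fl iMEFs and 10.27, 9.95, 9.99, 9.61 and 9.34 in wt/wt iMEFs. At 96 h both iMEF lines were at their lowest value, 1.11 and 0.92 below 0 h. In MEFs *Id2* stayed between 10.81 and 11.35, with 11.20, 10.85, 10.92, 11.06 and 11.14 in fl/fl and 10.98, 11.08, 10.81, 10.91 and 11.35 in wt/wt cells. The genotypes stood farthest apart in iMEFs at 24 h, where the fl/fl array was 0.80 higher on a single array per line.

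*Id3*, which is often co-expressed with *Id1*, was nearly flat in iMEFs. Its levels (probe set 10509163) were 10.88, 10.58, 10.89, 10.85 and 10.86 in fl/fl iMEFs and 10.92, 11.05, 10.74, 10.77 and 10.93 in wt/wt iMEFs. The genotypes overlapped and lay within 0.15 of each other at every time but 24 h. In MEFs *Id3* was 10.15, 9.92, 9.54, 9.26 and 9.75 in fl/fl and 10.27, 9.96, 9.70, 9.94 and 10.14 in wt/wt cells, so both lines dipped and the fl/fl line more deeply, to 0.68 below the control at 72 h.

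*Id4*, a gene best known from neural and spermatogonial cells, was the dimmest Id probe set in iMEFs relative to its own level in MEFs. In iMEFs its levels (probe set 10404975) were 7.06, 6.99, 7.13, 7.06 and 7.32 in fl/fl and 7.27, 7.31, 6.98, 7.15 and 7.31 in wt/wt cells. In MEFs they were 8.24, 8.25, 8.31, 8.59 and 8.51 in fl/fl and 8.27, 8.47, 8.24, 8.73 and 8.86 in wt/wt cells. Within each cell type the genotypes overlapped, and both MEF lines were higher at 72 and 96 h than at 0 h.

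Of the inhibitory SMADs, *Smad6* (probe set 10594418) was 9.78, 9.32, 9.88, 10.01 and 9.51 in fl/fl iMEFs and 10.03, 9.78, 9.65, 9.97 and 10.02 in wt/wt iMEFs. The fl/fl line was higher at 48 and 72 h only, by 0.23 and 0.05, and was 0.51 lower at 96 h, when its *Id1* level was highest. In MEFs *Smad6* was 8.50, 8.32, 8.37, 8.20 and 8.54 in fl/fl and 8.94, 8.65, 8.53, 8.40 and 8.71 in wt/wt cells, lower in the fl/fl line at every time. *Smad7* (probe set 10456745) changed little: it was 8.64, 8.62, 8.86, 8.86 and 8.90 in fl/fl iMEFs and 9.03, 9.04, 9.10, 9.07 and 8.81 in wt/wt iMEFs. In MEFs it was 8.66, 8.75, 9.01, 8.87 and 8.88 in fl/fl and 8.88, 8.91, 8.66, 8.72 and 9.00 in wt/wt cells. Over all 20 arrays *Smad7* thus stayed between 8.62 and 9.10.

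The paper describes UBF protein as nearly gone by 48 h pHT in its immortalized fl/fl cells, and gives no such course for primary MEFs. The late effect asks how far the difference between fl/fl and wt/wt cells changed from 48 h on. It is that difference at 48, 72 and 96 h minus that at 0 and 24 h, fitted for both cell types in 1 limma model over all kept genes. Its SE, interval and p rest on the scatter between times, as there was 1 line per genotype and cell type. They hold no spread between lines or between repeated cultures. In iMEFs the late effect was 1.53 ± 0.15 (SE; 2.89-fold) for *Id1*, the largest ratio of effect to SE among 15272 genes. It was 0.32 ± 0.20 for *Id3*, 0.29 ± 0.17 for *Id4*, 0.28 ± 0.18 for *Smad7* and 0.27 ± 0.21 for *Smad6*, and -0.49 ± 0.25 for *Id2*. So 5 of the 6 were above 0 and *Id2* lay below; apart from *Id1* they ranged over no more than 2 SE from 0. With an adjusted p under 0.05 as the call, 1 of the 6, *Id1*, was called, against 0.223% of all genes (28 higher and 6 lower). This contrast led to the choice of *Id1*, so its values are a description. At the threshold stood *Snord49b* (1.23 ± 0.21), the last gene inside, and *Pcdh18* (-1.03 ± 0.18), the first outside.

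The call of *Id1* depended on single times. Without either iMEF array of 24 h the effect was 1.50 ± 0.20 and was not called, nor was it called without either MEF array of 72 h, where the value was 1.53 ± 0.17. With 24 h counted as late it was 1.11 ± 0.51. The values of *Id2* and *Id3* in iMEFs rested on the 24 h arrays too: with 24 h left out they were -0.10 ± 0.25 and 0.10 ± 0.26, and with 24 h counted as late 0.12 ± 0.36 and -0.03 ± 0.30. The median late effect in iMEFs over all genes was -0.04, and it differed with level. Over 4 groups of 3818 genes ordered by mean level, from the lowest up, it was 0.16, 0.02, -0.20 and -0.18. *Id1*, *Id2* and *Id3* belonged to the group with the highest levels, *Smad6* and *Smad7* to the third and *Id4* to the second; whether that drift had a part in the small positive values was not tested.

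Markers of the cell types lay on both sides of 0 for the late effect in iMEFs, with 0 called. Of 12 fibroblast markers 11 lay below 0, with a median of -0.15; with quantile scaling 7 did, with a median of -0.09. Among them *Pdgfra*, a receptor gene of mesenchymal cells, was at -1.28 ± 0.23 (limma, adjusted p = 0.0583) and *S100a4* at -1.08 ± 0.38 (limma, adjusted p = 0.147). Of 11 macrophage markers 9 lay above 0, with a median of 0.27. *Lyz2*, the lysozyme gene, was at 1.03 ± 0.24, with line means of 4.92 and 5.28 in iMEFs. It was under the filter on every iMEF array and was kept through the MEF arrays, so its late effect in iMEFs is one of background values. Of the 12 macrophage markers measured, 5 were over the filter on no array of fl/fl iMEFs, and 5 on no array of wt/wt iMEFs. Above 0 were also 7 of 8 endothelial markers (median 0.18), 5 of 8 epithelial markers (0.03) and 6 of 7 skeletal muscle markers (0.16). Their part in the members' values was not tested.

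**Figure D2:**
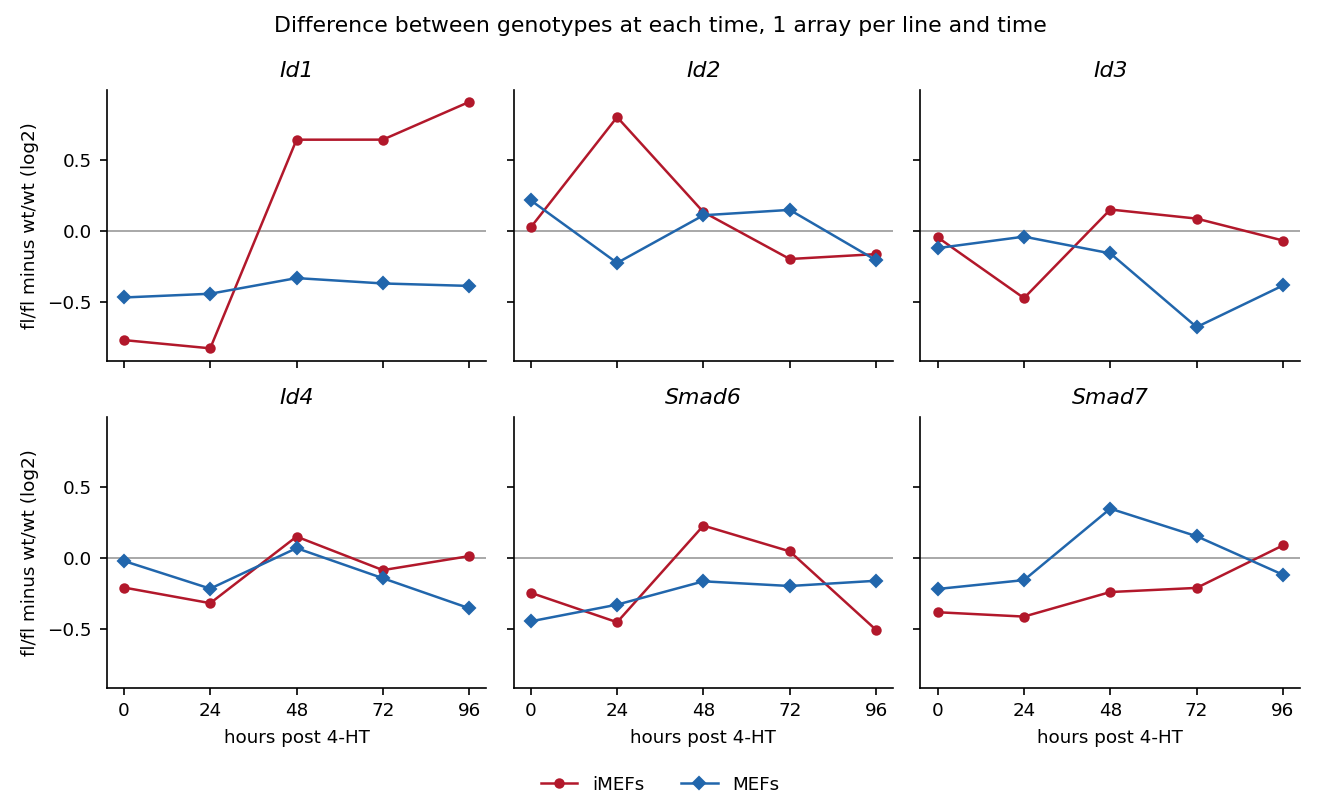
Difference between the fl/fl and the wt/wt array (log2) at each time post 4-HT, in iMEFs (circles) and MEFs (diamonds), on 1 scale for all panels. *Id1* in iMEFs goes from -0.77 at 0 h to 0.91 at 96 h, while in MEFs it stays between -0.47 and -0.33.

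In MEFs the same contrast, which had no part in the choice of genes, gave no call for any member. The late effect was 0.09 for *Id1* (95% interval -0.24 to 0.42; adjusted p = 0.848, limma). It was 0.32 for *Smad7* (-0.08 to 0.71) and -0.33 for *Id3* (-0.76 to 0.11), both with an adjusted p of 0.718 by limma. *Smad6* had 0.21 (-0.25 to 0.67; adjusted p = 0.758), *Id2* 0.02 (-0.52 to 0.57; adjusted p = 0.980) and *Id4* -0.02 (-0.40 to 0.36; adjusted p = 0.969) in the same limma fit. For *Id2* and *Id4* the sign turned under other settings. Of the 15272 genes 0% were called in MEFs, and 1052 had an unadjusted p under 0.05. The difference of the late effects, iMEFs minus MEFs, was 1.44 ± 0.21 for *Id1*, 0.64 ± 0.28 for *Id3*, 0.31 ± 0.24 for *Id4*, 0.06 ± 0.30 for *Smad6*, -0.04 ± 0.25 for *Smad7* and -0.51 ± 0.35 for *Id2*. The signs for *Smad6*, *Smad7* and *Id2* turned under other settings. The difference contains the contrast behind the choice of *Id1* and is given without a test; here too 0% of genes were called, with 1136 at an unadjusted p under 0.05.

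Changes common to all 4 lines were small. Over the day after 4-HT, *Smad6* was lower at 24 h than at 0 h in 4 of 4 lines (-0.46, -0.25, -0.18 and -0.30), with a mean of -0.30 ± 0.08 (SE, n = 4 lines; limma, adjusted p = 0.379). *Id1* was also lower in 4 of 4 lines, by 0.12 to 0.25, with a mean of -0.19 ± 0.08 (limma, adjusted p = 0.395). A fall in all 4 lines was seen in 15.0% of genes. *Id3* had a mean of -0.18 ± 0.10 (limma, adjusted p = 0.466), *Id4* 0.05 ± 0.08, *Smad7* 0.03 ± 0.08 and *Id2* -0.03 ± 0.14. No gene passed (0% called, 1905 at an unadjusted p under 0.05).

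From the early to the late times, averaged over the 4 lines, *Id2* had the largest mean change, -0.35 ± 0.17 (limma, adjusted p = 0.386), made by the 2 iMEF lines (-0.95 and -0.46) with the MEF lines at 0.01 and -0.01. The other members lay between -0.18 ± 0.12 for *Id3* and 0.11 ± 0.10 for *Id4*, with *Id1* at -0.07 ± 0.22, *Smad6* at -0.02 ± 0.11 and *Smad7* at 0.08 ± 0.10. Again 0% of genes were called, with 2374 at an unadjusted p under 0.05. From 48 to 96 h *Id1* went up in all 4 lines, by 0.66 and 0.39 in fl/fl and wt/wt iMEFs and by 0.34 and 0.40 in fl/fl and wt/wt MEFs. *Id4* did so too, by 0.18 to 0.62, and a gain in all 4 lines was seen in 3.72% of genes. The late climb of *Id1* was thus not particular to fl/fl iMEFs in direction, and with 1 array per line and time its size could not be compared with a replicate spread.

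The members were also divided between iMEFs and MEFs. *Id3* and *Smad6* were higher in iMEFs, and *Id2* and *Id4* were higher in MEFs, with no overlap between the 10 iMEF and the 10 MEF arrays for these 4 genes. Such a separation was seen in 25.6% of all genes. In means over the 5 times (± SD over times), *Smad6* was 9.89 ± 0.17 in wt/wt and 9.70 ± 0.28 in fl/fl iMEFs, then 8.65 ± 0.21 in wt/wt and 8.38 ± 0.14 in fl/fl MEFs. *Id3* followed the same order, from 10.88 ± 0.13 and 10.81 ± 0.13 in wt/wt and fl/fl iMEFs to 10.00 ± 0.22 and 9.73 ± 0.34 in wt/wt and fl/fl MEFs. The 2 lines of a cell type differed by less than the larger SD for *Id3* and for *Smad6* in iMEFs, and by more than either SD for *Smad6* in MEFs.

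*Id2* stood at 11.03 ± 0.14 in fl/fl and 11.03 ± 0.21 in wt/wt MEFs, above 9.95 ± 0.65 and 9.83 ± 0.36 in fl/fl and wt/wt iMEFs. *Id4* was 8.52 ± 0.28 and 8.38 ± 0.16 in wt/wt and fl/fl MEFs and 7.21 ± 0.14 and 7.11 ± 0.12 in wt/wt and fl/fl iMEFs. *Id1* was 10.24 ± 0.49 and 10.12 ± 0.44 in fl/fl and wt/wt iMEFs, 9.82 ± 0.22 in wt/wt MEFs and 9.42 ± 0.19 in fl/fl MEFs, where neighbouring lines differed by less than their spread except for the 2 MEF lines. *Smad7* had 9.01 ± 0.11 in wt/wt iMEFs, 8.84 ± 0.13 and 8.84 ± 0.14 in fl/fl and wt/wt MEFs, and 8.78 ± 0.13 in fl/fl iMEFs, with the lower 3 lines inside each other's spread.

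With the line as the unit, iMEFs minus MEFs was 1.28 ± 0.08 (SE; 2.43-fold) for *Smad6* (limma, adjusted p = 0.00228) and 0.98 ± 0.10 (1.98-fold) for *Id3* (limma, adjusted p = 0.00393). It was -1.29 ± 0.08 for *Id4* (limma, adjusted p = 0.00224) and -1.14 ± 0.09 for *Id2* (limma, adjusted p = 0.0026). *Id1* had 0.56 ± 0.16 (limma, adjusted p = 0.0403), a call that was lost with the 0 h arrays alone (0.43, adjusted p = 0.0682). *Smad7* had 0.06 (95% interval -0.23 to 0.34; limma, adjusted p = 0.636). So 5 of the 6 were called, against 66.5% of all genes (5368 higher and 4793 lower in iMEFs), a share that leaves little to read from the count. The balance of directions moved with the setting: 7047 genes were higher and 4183 lower with median scaling, 6098 and 4144 with quantile scaling, and 2712 and 3786 with the 0 h arrays alone. The test rests on 2 lines of each cell type.

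Markers of several cell types moved with this comparison. Macrophage markers had mean log2 levels of 7.88 to 9.01 on the MEF arrays and 6.15 to 6.60 on the iMEF arrays. Of the 11 kept 10 were lower in iMEFs, with *Lyz2* at 12.38 in fl/fl MEFs and 4.92 in fl/fl iMEFs. Of the fibroblast markers 11 of 12 were lower in iMEFs. *Lyz2*, *Adgre1*, *Mrc1* and *Lum* passed the filter only through the MEF arrays. *Ptprc*, with means of 5.6 and 5.8 in fl/fl and wt/wt iMEFs, was over it on only 7 of the 20 arrays. The filter itself thus favoured lower values in iMEFs in these 2 counts. Of all 15272 genes 4793 were called lower. Epithelial markers went the other way: 5 of the 8 kept were higher in iMEFs and 0 lower, their median difference was 0.43, and *Krt19*, a keratin gene, was at 1.68 ± 0.20 (limma, adjusted p = 0.00564). Their mean levels were 6.69 to 7.13 on the MEF arrays and 7.15 to 7.64 on the iMEF arrays. Endothelial markers, of interest because *Id1* and *Smad6* are high in endothelium, were divided, with 3 of the 8 kept higher in iMEFs and 2 lower. *Pecam1*, among the higher, was over the filter on 3 of the 20 arrays, and *Tek*, among the lower, on 6. The filter may thus have favoured either direction in these counts. *Egfl7*, the gene of a protein secreted by endothelial cells, was at 1.28 ± 0.10 (limma, adjusted p = 0.00282), in the same direction as *Smad6* and *Id1*, whereas the receptor gene *Kdr* was at -0.66 ± 0.12 (limma, adjusted p = 0.0163). The mean of the endothelial list was 6.48 to 6.84 on all arrays, and the defining markers *Cdh5* and *Emcn* were under the filter on all 20 arrays. Of 7 skeletal muscle markers 1 was lower in iMEFs and 0 higher. With median scaling 5 endothelial markers were higher and 1 lower, 6 epithelial markers were higher, and 2 muscle markers were higher and 1 lower. The part of these marker differences in the members' values was not tested.

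**Figure D3:**
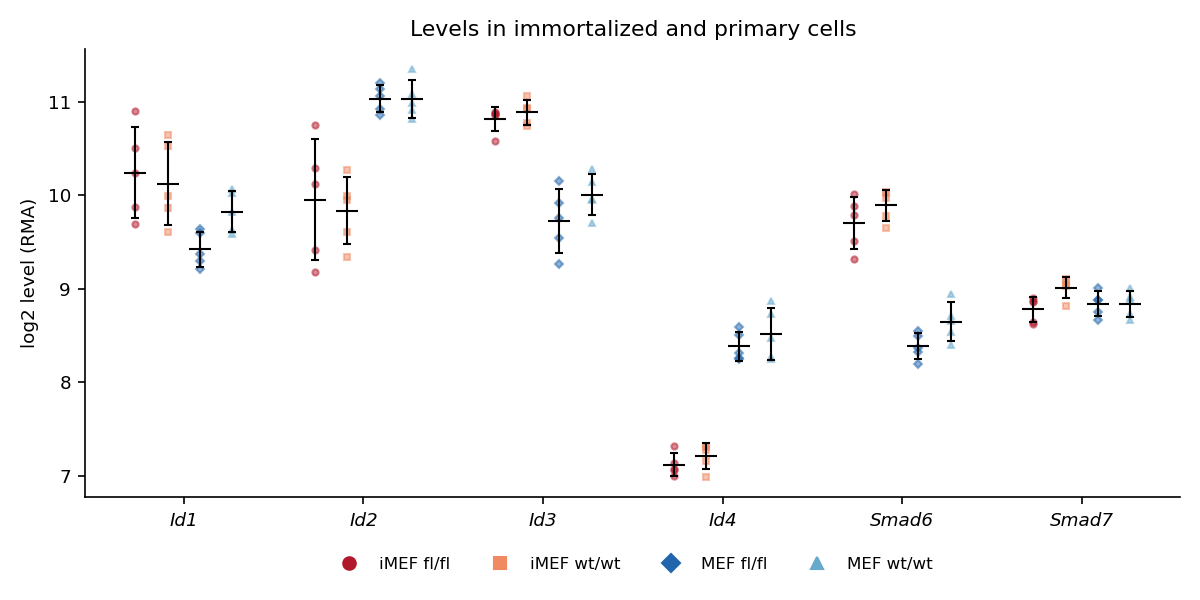
Log2 level (RMA) of each gene in the 4 lines: coloured points are the 5 arrays of a line, the bar is their mean and the whisker 1 SD over times. Levels can be compared within a gene and not between genes; *Smad6* and *Id3* stand higher in iMEFs, *Id2* and *Id4* in MEFs, and *Smad7* at 8.78 to 9.01 in all lines.

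The wider BMP pathway was followed in 7 lists of ligands, receptors, SMADs, antagonists, targets and Id partners, of which 78 of 87 genes were kept. In iMEFs 0 of the 78 were called for the late effect, 43 lay above 0 and their median was 0.06, against -0.04 over all genes, where 46.4% lay above 0. The 10 other BMP target genes kept had a median of 0.13. The highest of them was *Atoh8*, a transcription factor gene induced by BMP, at 0.95 ± 0.18; like *Id1* it combined a gain in fl/fl iMEFs (0.31) with a loss in wt/wt iMEFs (-0.65), and with quantile scaling it was called. *Hey1*, a repressor gene shared with Notch signalling, was at -0.54 ± 0.35 and *Dlx5*, a homeobox gene of bone formation, at 0.53 ± 0.21. *Bambi*, a decoy receptor gene that BMP induces, was at 0.18 ± 0.16, and *Msx1* and *Msx2* at 0.03 ± 0.21 and -0.03 ± 0.24.

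Upstream of the SMADs, the 13 ligand genes kept had a median late effect of 0.23 in iMEFs. *Gdf10* stood highest at 0.86 ± 0.26 and was at 0.96 ± 0.26 in MEFs, while *Bmp4*, the ligand gene with a line mean of 11.01 or more in every line, was at -0.08 ± 0.25. The 12 receptors and co-receptors had a median of -0.05. *Neo1*, the gene of the co-receptor neogenin, was lowest at -0.78 ± 0.26, followed by the receptor genes *Bmpr1a* at -0.67 ± 0.37 and *Bmpr2* at -0.65 ± 0.19. The genes of the receptor SMADs and *Smad4*, 6 in all, lay between -0.32 and 0.19 with a median of -0.06. With quantile scaling the medians of these last 2 groups were 0.03 and 0.13.

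Brakes on the pathway act outside the cell or within it. Secreted antagonists had a median late effect of 0.10 in iMEFs over 14 genes, with *Grem1*, the gene of gremlin, at 0.58 ± 0.28. The intracellular brakes act on SMADs or, in the case of the *Fkbp1a* product, on the type I receptor. All 10 lay below 0, from -0.62 ± 0.32 for the ubiquitin ligase gene *Smurf2* to -0.04 for *Fkbp1a*, with a median of -0.28. With quantile scaling 3 of them lay above 0 and the median was -0.19. Over all genes the median late effect in iMEFs was -0.20 and -0.18 in the third and highest of the 4 groups by level, and 0.16 in the lowest. Whether this drift with level had a part in the values of the brakes and the other pathway lists was not tested. Among the 13 basic helix-loop-helix partners of Id proteins kept the median was 0.25, with *Tcf15* at 0.72 ± 0.21 and *Tcf12* at -0.54 ± 0.31, the latter an E protein gene.

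**Figure D4:**
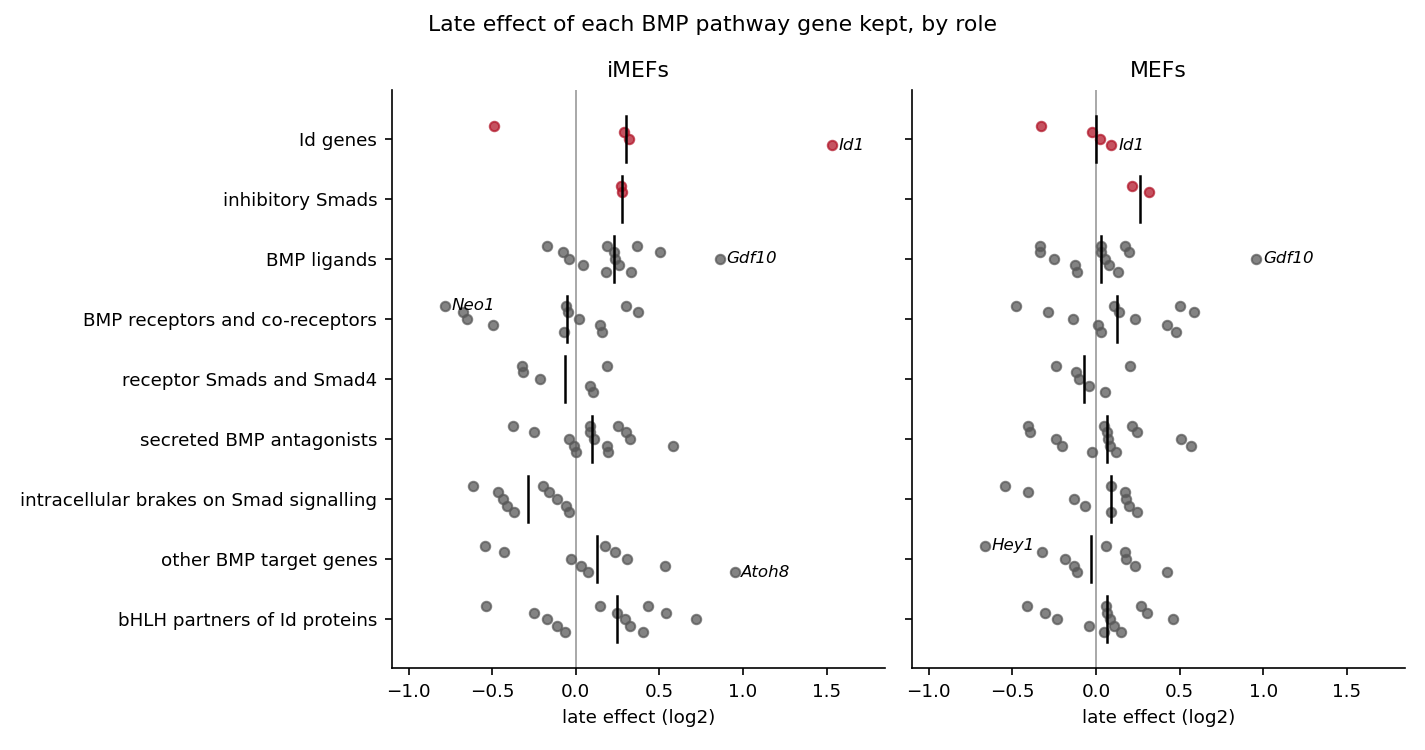
Late effect (log2) in iMEFs and MEFs of each pathway gene kept, 1 point per gene, grouped by role, with the black bar at the median of the group; the members are in red and points are spread vertically for legibility. *Id1* at 1.53 in iMEFs lies apart from every other gene shown, the next being *Atoh8* at 0.95.

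In MEFs 0 of the 78 were called for the late effect either, 48 lay above 0, against 59.2% of all genes, and they reached from -0.67 ± 0.35 for *Hey1* to 0.96 for *Gdf10*. Between 0 and 24 h all 10 other BMP target genes had a mean below 0 over the 4 lines, with a median of -0.23 against -0.02 for all genes; *Hey1* was at -0.72 ± 0.21 (limma, adjusted p = 0.379) and *Msx1* at -0.37 ± 0.11 (limma, adjusted p = 0.379), and 0 of the 10 passed. The largest late-minus-early change in the pathway was that of *Grem1*, which was higher late in 4 of 4 lines, by 0.44 to 1.35, with a mean of 0.98 ± 0.15 (limma, adjusted p = 0.0724).

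Between cell types 26 of the 78 pathway genes were called higher and 27 lower in iMEFs, 53 genes in all. Of all 15272 genes 66.5% were called, 5368 higher and 4793 lower. The counts of the pathway and of its lists stand beside that share as a description, and little can be read from them. Of the 12 receptors and co-receptors 7 were lower and 2 higher, among them *Eng* (-2.07), *Acvr2a* (-1.75), *Bmpr1a* (-1.66) and *Bmpr2* (-1.49). The antagonists *Fst* (-2.49) and *Grem1* (-1.77) were lower in iMEFs and *Chrd*, the gene of chordin, was higher (0.86). Of the other BMP targets 6 were higher in iMEFs and *Hey1* (-0.82) was lower; *Dlx2* (1.35) and *Msx2* (0.79) had the largest of these positive differences. Among Id partners 8 were higher and 3 lower, with the tendon factor gene *Scx* at 1.47 and *Tcf12* at -1.33. The intracellular brakes had 5 lower and 0 higher, with *Smurf2* at -1.27, and 4 lower and 2 higher with quantile scaling. All these calls are from limma at an adjusted p under 0.05, with SEs of 0.08 to 0.53.

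Genes of the TGF-beta branch and of the serum response were set beside the members. Of 11 TGF-beta target genes 0 were called for the late effect in iMEFs and their median was -0.06 (0.08 with quantile scaling), with *Tgfbi* at -0.67 ± 0.26. Of 18 immediate early genes, which serum induces within minutes, 17 lay above 0 in iMEFs and 17 in MEFs. Their medians were 0.55 and 0.49, with 0 calls in either. Over all genes 46.4% lay above 0 in iMEFs and 59.2% in MEFs, with medians of -0.04 and 0.06. *Fosl1* was at 1.03 ± 0.26 and *Ier2* at 0.95 ± 0.28 in iMEFs, and *Egr1* at 1.23 ± 0.39 and *Egr2* at 0.98 ± 0.32 in MEFs. The members' median was 0.28 in iMEFs and 0.06 in MEFs. How much of the *Id1* value moved with the immediate early genes was not tested.

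Likeness to *Id1* was measured as Pearson's r over the 20 arrays after the mean of each line was subtracted, as a description of points that share lines and times. The most alike were *Olfr545* (r = 0.893), *Hcn4* (0.880), *Rnf39* (0.866), *Snhg17* (0.849) and *Trmt61a* (0.848). Of these *Snhg17*, the host RNA of small nucleolar RNAs, had a late effect in iMEFs of 1.74, with 0.88 in fl/fl and -0.86 in wt/wt iMEFs between early and late, and the other 4 had 0.57 to 0.94. *Olfr545* and *Hcn4*, an odorant receptor and a pacemaker channel gene, had mean levels of 6.83 and 6.42. No member of the set was among the 5. Of the members *Id3* was most like *Id1* (r = 0.543, above 90.5% of genes), followed by *Smad6* (0.437), *Smad7* (0.373) and *Id4* (0.368), and *Id2* ran the other way (-0.316).

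Within cell types the members paired differently. Over the 10 MEF arrays *Id1* went with *Smad6* (r = 0.924), *Id3* (0.761) and *Id2* (0.668), and r with *Id4* was -0.03. Over the 10 iMEF arrays it went with *Id4* (0.817) and *Id3* (0.694), and r was 0.291 with *Smad6* and -0.464 with *Id2*. The lowest and highest iMEF arrays of *Id4* were only 0.33 apart. *Id3* thus had r of 0.694 in iMEFs and 0.761 in MEFs, but the size of its changes in iMEFs was small. Its lowest and highest iMEF arrays were 0.48 apart, against 1.30 for *Id1*, and in fl/fl iMEFs it was at -0.01 for 96 h minus 0 h, where *Id1* was at 1.03.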

How the data were processed

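RNA levels were read on 20 Affymetrix arrays (4 lines at 5 times). The array type differs between sources: the study's methods give Mouse Gene 2.0 ST, and the probe set annotation used here belongs to Mouse Gene 1.0 ST. With RMA-sketch (Affymetrix Power Tools 1.14.4) the authors normalized the arrays as 1 set and deposited log2 values, 1 per probe set and array. RMA makes levels comparable between arrays and not between probe sets, and it compresses differences near background. Depth does not apply to arrays, and their number limits the precision.

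From these values the probe set with 1 symbol and the highest mean was taken for each of 19938 genes. Of 35556 probe sets 21789 carry 1 symbol, 1621 carry several and 12146 are not listed. Identifiers of 21698 were found in the RefSeq gene table and 0 symbols changed. Genes were kept when over the 40th percentile of an array on at least 2 arrays. Tests used limma 3.58.1 in R 4.3.3 with Benjamini-Hochberg adjustment over all 15272 genes and a threshold of 0.05. The late effect came from 1 model of line, time within cell type and genotype by late time (6 residual degrees of freedom, 4.78 from the empirical Bayes prior). Changes common to the lines were tested on 4 within-line differences (3 residual degrees of freedom), and iMEFs against MEFs on 4 line means with genotype as a term (1 residual degree of freedom, 2.79 from the prior). Both genotypes of a cell type share each time term, so leaving out either array of a time drops that time's difference. Scripts were tested on simulated data. For the figures matplotlib 3.10.9 was used in Python 3.11.15.

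The members and the gene lists were chosen with earlier results of these data known. Named were the 6 members, up to 4 genes past the threshold per pathway list and test, up to 2 per list with the largest value where none passed, the 5 genes most like *Id1* (small RNAs and predicted genes left out) and *Ubtf*. *Bambi*, *Bmp4*, *Bmpr2*, *Msx1*, *Msx2* and *Chrd*, and *Fkbp1a*, *Lyz2* and the other markers, were named outside that rule where a sentence needed them, after their values were seen. So were the genes named for the number of arrays on which they were over the filter. Some listed genes are not reported here. With a single array for each line and time there were no replicate numbers to use as a block.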

Additional observations from a re-analysis of the deposited data

How the results depend on the processing

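The late effect of *Id1* in iMEFs stayed between 1.11 and 1.66 under 12 alternatives (scaling, filter, probe set choice, variance settings, times left out, cell type fitted alone). With single arrays left out it was between 1.44 and 1.58, and it was called in 16 of 20. Either array of a time gives the same fit, so these 20 are not separate checks. The late effect of *Id1* was not called with 24 h left out (1.50), 24 h counted as late (1.11) or 72 h left out (1.58). *Id1* was picked in this contrast, so these values and calls describe and test nothing.

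The number of genes called for the late effect in iMEFs was less stable: against 34 it was 102 with quantile scaling, 92 with trend and robust variance settings, 14 with iMEFs fitted alone, 1663 with 96 h left out, and 0 with 24 h left out, 24 h counted as late or 72 h left out. With single arrays left out it ran from 0 (iMEF arrays of 24 h and MEF arrays of 72 h) to 998 (MEF arrays of 96 h). In MEFs 11 genes were called with 48 h left out and 0 to 81 with single arrays left out, the highest without either array of 48 h; for the difference of late effects these were 5 with 96 h left out and 0 to 1. The late-minus-early change gave 29 genes with median scaling, 50 with the filter at the 60th percentile, 8 with the mean of all probe sets, and 0 with any line left out. The 24 h minus 0 h change gave 0 throughout, and iMEFs minus MEFs gave 6498 with the 0 h arrays alone. The cause of these shifts was not tested.

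Signs of members turned as well. In iMEFs the late effects of *Id2* and *Id3* were 0.12 and -0.0306 with 24 h counted as late, against -0.49 and 0.32. The late effect of *Id2* in MEFs was -0.00863 with quantile scaling, -0.20 with 24 h left out, -0.26 with 24 h counted as late, -0.0242 with 48 h left out and -0.0431 with 72 h left out. That of *Id4* was 0.0176 with quantile scaling and 0.0820 with 96 h left out, and the late-minus-early change of *Smad6* was 0.0255 with quantile scaling. With arrays or lines left out the values ran from -0.20 to 0.24 (*Id2*) and -0.13 to 0.0820 (*Id4*) for the late effect in MEFs. They ran from -0.19 to 0.0800 (*Id2*) and -0.00791 to 0.0851 (*Id4*) at 24 h minus 0 h, and from -0.35 to 0.16 (*Id1*) and -0.10 to 0.0629 (*Smad6*) for late minus early. Scaling moved the median of all genes for iMEFs minus MEFs from 0.12 to 0.24 (median) or 0.19 (quantile).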
